A study of Homo sapiens with 27 samples.

Results

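Here 10 genes whose products sit on the surface of endothelial cells or are secreted by them were followed through every group: PLVAP, EMCN, MMRN1, MMRN2, CD34, CD93, CLEC14A, EGFL7, LYVE1 and STAB1. They were found by matching the identifiers of the deposited count table to these symbols, and all 10 were present among the 60604 gene entries used. The matching rule itself used no measured value. The members, and the gene lists used further on, were however chosen with earlier results of these data known. The cells were EA.hy926, a human hybrid line made from umbilical vein endothelial cells and the A549 lung carcinoma line. They were kept alone (control) or exposed for 48 h to adipose mesenchymal stromal cells (MSCs) of the immortalised line ASC52telo. Young MSCs were untreated, and senescent MSCs had received mitomycin C at 1.5 µg/mL for 18 h followed by 10 days of culture. The exposure took 1 of 3 forms, namely decellularised MSC matrix (young ECM, senescent ECM), MSC-conditioned medium at a ratio of 1:1 (young CM, senescent CM), or MSCs grown in direct contact with the endothelial cells at 1:1 (young co-culture, senescent co-culture). All 7 groups thus rest on a single endothelial line, and the 6 exposed groups on a single MSC line. There were 4 libraries per group except senescent co-culture, which had replicates 2 to 4 only. Comparisons used those 3 replicates of every group, and replicate 1 is shown apart.

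The surface and the surroundings of endothelial cells are built from a small set of recurring protein types. Multimerins are large secreted glycoproteins: multimerin-1 (MMRN1) is stored in platelets and endothelial cells and binds factor V, while multimerin-2 (MMRN2) lies in the endothelial matrix and binds the C-type lectin-like receptors CD93 and CLEC14A. EGFL7 is a secreted protein with EGF-like domains that is deposited in vessel matrix. STAB1 (stabilin-1) is a scavenger receptor, LYVE1 a hyaluronan receptor known from lymphatic endothelium, CD34 and endomucin (EMCN) are sialomucins of the cell coat, and PLVAP forms the diaphragms of caveolae and fenestrae.

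Stretches just upstream of the transcription start are shown for 4 members, those with a window outside annotated exons. ETS factors, among them the endothelial regulators ERG and FLI1, bind a GGAA core, so the letters AGGAAG and CGGAAG were searched on both strands in windows from 250 to 11 bases before each RefSeq start (GRCh38.p14). A run of letters can hold both, the end of CGGAAG serving as the start of AGGAAG. Of all 35116 windows, 27.5% hold AGGAAG, 15.4% hold CGGAAG and 38.9% hold either. Promoter entries were matched for 8 of the 10 members, with 10 entries in all, and 7 of the entries hold either form. The 4 windows below are on the strand of the gene, at chr19:17377353-17377592 (-) for PLVAP, chr3:52495088-52495327 (+) for STAB1, chr9:136658606-136658845 (+) for EGFL7 and chr4:89879261-89879500 (+) for MMRN1. Capitals mark a match, and CTTCCG is CGGAAG read on the other strand.
PLVAP: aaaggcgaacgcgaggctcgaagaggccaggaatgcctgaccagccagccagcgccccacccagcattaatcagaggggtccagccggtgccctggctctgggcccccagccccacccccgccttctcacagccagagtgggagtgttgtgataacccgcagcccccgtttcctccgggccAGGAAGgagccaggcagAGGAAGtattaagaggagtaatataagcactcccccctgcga
STAB1: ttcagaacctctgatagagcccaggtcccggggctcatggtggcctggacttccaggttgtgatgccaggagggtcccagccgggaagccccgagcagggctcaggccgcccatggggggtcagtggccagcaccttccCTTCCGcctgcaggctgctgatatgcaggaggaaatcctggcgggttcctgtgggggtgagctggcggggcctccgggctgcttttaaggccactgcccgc
EGFL7: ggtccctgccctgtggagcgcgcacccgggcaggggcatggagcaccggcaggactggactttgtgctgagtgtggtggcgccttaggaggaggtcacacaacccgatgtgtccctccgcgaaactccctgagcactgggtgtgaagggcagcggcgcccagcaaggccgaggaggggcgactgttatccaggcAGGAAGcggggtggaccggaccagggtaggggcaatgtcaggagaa
MMRN1: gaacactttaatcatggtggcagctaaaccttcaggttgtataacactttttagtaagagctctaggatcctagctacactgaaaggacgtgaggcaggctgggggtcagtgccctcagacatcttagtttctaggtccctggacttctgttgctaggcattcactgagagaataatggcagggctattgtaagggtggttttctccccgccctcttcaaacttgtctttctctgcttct
PLVAP holds 2 matches of AGGAAG, the EGFL7 window shown holds 1, and STAB1 holds 1 match of CGGAAG. The window of another EGFL7 start, at chr9:136662666-136662905 and not shown, also holds AGGAAG. The MMRN1 window shown holds neither form, while the window of the second MMRN1 start, which lies partly in annotated exons and is not shown, holds AGGAAG. A match is a run of letters and not a measured binding site.

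Total counts ran from 66320519 to 111512357 per library. Levels are given in CPM, the count of a gene relative to the library total after TMM scaling, with the SD over 3 libraries. Endothelial genes were detected: all 10 check markers, from PECAM1 and CDH5 to ERG and ROBO4, had counts in every library of replicates 2 to 4, and VWF, the stored clotting glycoprotein, did not fall below 2.72 CPM. In control replicates 2 to 4 the 10 check markers summed to 1587 to 1950 CPM. The 11 epithelial markers summed to 1990 to 2431 CPM in the same libraries. Lymphatic markers were mostly near 0. PROX1, the lymphatic regulator, reached 5.12 CPM, whereas PDPN, FLT4, CCL21 and STAB2 reached at most 0.0601, 0.205, 0.0251 and 0.00902 CPM. The leukocyte marker PTPRC reached 0.117 CPM, and AIF1 and the platelet genes PF4 and GP1BB had no count in any library of replicates 2 to 4. The whole list of 14 haematopoietic and myeloid markers was not absent. It summed to 19.1 to 24.7 CPM in those replicates, with 10 or 11 genes, depending on the group, under 1 CPM in every library.

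Replicate 1 stood apart. The summed level of 16 stromal markers, including COL1A1, DCN and PDGFRB, was 6205 to 10502 CPM in replicate 1 of the control, ECM and CM groups, against 349 to 441 CPM in control replicates 2 to 4. Young co-culture replicate 1 had 299 CPM of them but 18073 CPM of 11 epithelial markers, against 3152 to 4489 CPM in the other co-culture libraries. By library totals, without TMM, the epithelial sum of that replicate 1 library was 8294 CPM. The stromal sum in replicates 2 to 4 was 571 to 662 CPM in young co-culture and 720 to 822 CPM in senescent co-culture, where 11 and 13 of 15 tested stromal markers rose. The labels conflict on the source of the RNA: their extraction protocol speaks of MSCs and their cell type entry of endothelial cells, and the latter is followed here. They do not say whether MSCs were removed after co-culture, nor whether replicates were separate cultures, so the p-values reflect how far these libraries vary, and that variation may be technical. In such bulk samples, fewer cells of a type and less RNA per cell cannot be told apart.

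The members covered a wide range of abundance. Per kilobase of exon, and averaged over the 21 libraries of replicates 2 to 4, EGFL7 stood highest at 226 CPM per kb. CLEC14A followed at 51.6, MMRN2 at 44.5 and CD93 at 41.6 CPM per kb. PLVAP had 13.4, STAB1 8.62, CD34 2.43 and MMRN1 2.23 CPM per kb. LYVE1 lay at 0.226 CPM per kb, with 29 to 119 counts per library. EMCN was at the edge of detection, with 15 counts over all 21 libraries and 12 libraries at 0. At this depth a count of 0 allows up to 0.0269 to 0.0452 CPM, taking 3 counts as the upper limit for counting error only. EMCN did not pass the filter on low counts, so 9 of the 10 members were tested, and its level cannot be compared between groups.

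**Figure D1:**
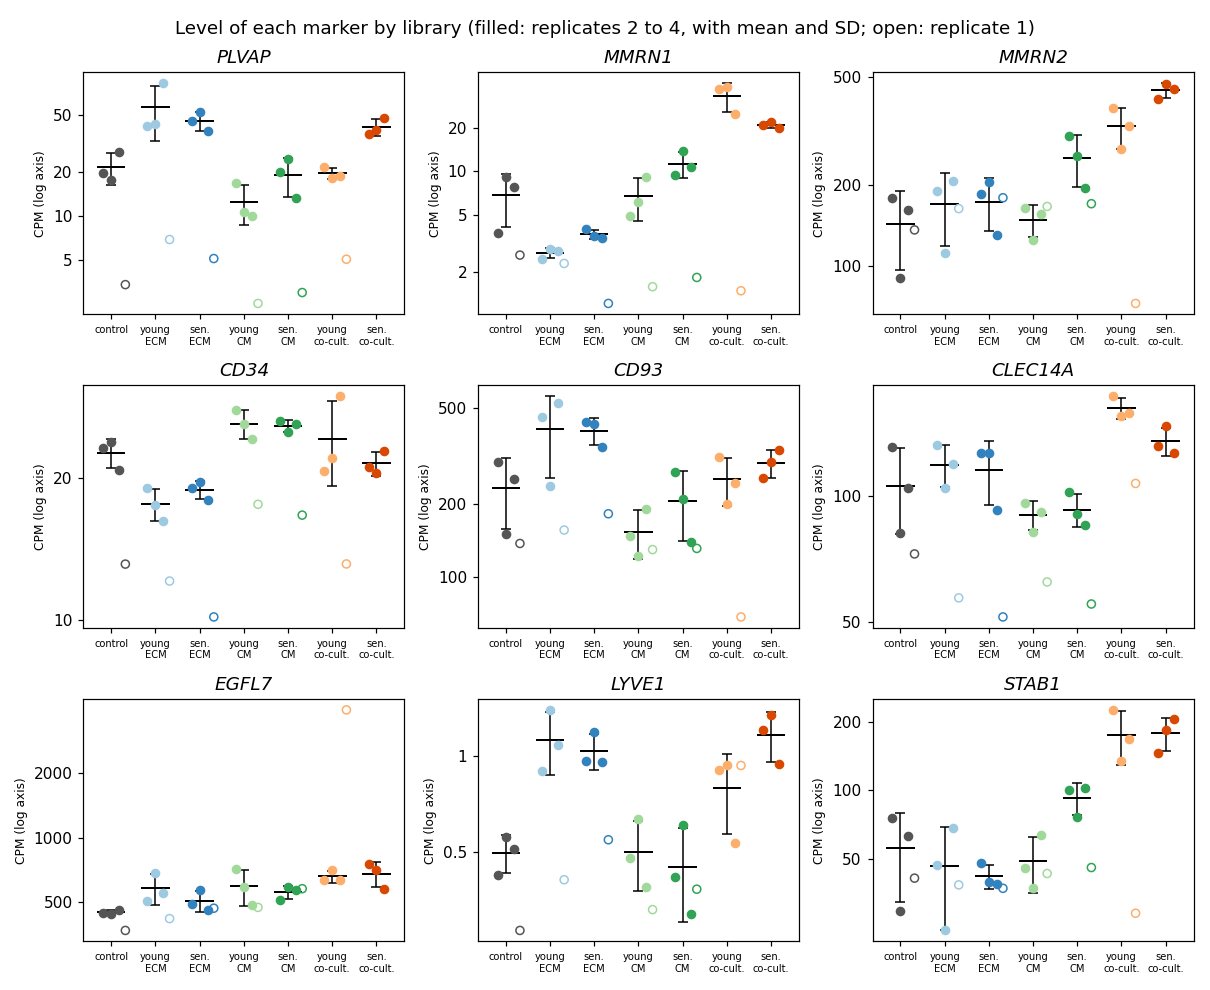
Level in CPM (log axis) of the 9 tested members in each library of the 7 groups. Filled points are replicates 2 to 4 with their mean (bar) and SD (whisker), and open points are replicate 1. MMRN1, MMRN2 and STAB1 stand highest in the co-culture groups, PLVAP and CD93 in the ECM groups, and young co-culture replicate 1 of EGFL7 lies at 3948 CPM.

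The multimerins rose in direct co-culture. MMRN1 (ENSG00000138722.10; chromosome 4, 89879532 to 89954629, plus strand, GENCODE 29 on GRCh38) read 3.75, 9.07 and 7.76 CPM in control replicates 2, 3 and 4. It read 37.0, 38.7 and 24.9 CPM in young co-culture and 20.9, 22.1 and 19.9 CPM in senescent co-culture, so no co-culture library overlapped the controls. The log2 fold change was 2.30 ± 0.28 (SE) with young MSCs (adjusted p = 0.000449) and 1.63 ± 0.28 with senescent MSCs (adjusted p = 0.00352), by edgeR's quasi-likelihood test with Benjamini-Hochberg adjustment, as everywhere below. Senescent against young co-culture gave -0.68 ± 0.27 (adjusted p = 0.753): every senescent library was below every young one, but the difference did not pass the test.

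On decellularised matrix MMRN1 went the other way. Its level was 2.46, 2.89 and 2.81 CPM on young ECM and 3.96, 3.59 and 3.44 CPM on senescent ECM. All young ECM libraries lay below all controls, and the log2 fold change was -1.33 ± 0.28 (adjusted p = 0.0448). That call was lost without any 1 of young ECM replicates 2, 3 or 4 or control replicates 3 or 4 (adjusted p from 0.0784 to 0.24), and with library totals in place of TMM. On senescent ECM the value was -0.90 (adjusted p = 0.284), with 1 control library, replicate 2, inside the range of the ECM libraries. In CM it read 4.90, 6.16 and 9.21 CPM with young MSCs and 9.45, 13.9 and 10.6 CPM with senescent MSCs. The senescent CM libraries all lay above the controls, but the log2 fold change of 0.74 did not pass (adjusted p = 0.506).

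MMRN2 (ENSG00000173269.14, chromosome 10, 86935540 to 86969481, minus strand) shares 440 exon bases with the antisense-named gene ADIRF-AS1 on the same strand. How the counting treated reads there is not given in the sources used here. Control libraries read 179, 90.7 and 161 CPM. Young co-culture read 384, 272 and 330 CPM and senescent co-culture 417, 473 and 452 CPM, all above the controls. MMRN2 rose by 1.20 ± 0.23 on the log2 scale with young MSCs (adjusted p = 0.00736) and by 1.65 ± 0.23 with senescent MSCs (adjusted p = 0.00105). On ECM it read 112 to 207 CPM over both groups, overlapping the controls. Senescent CM read 303, 255 and 195 CPM, with all 3 libraries above the controls, yet the log2 fold change of 0.81 ± 0.28 did not pass (adjusted p = 0.381).

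EGFL7 was the most abundant member (ENSG00000172889.16; chromosome 9, 136658856 to 136672678, plus strand), and its highest group mean was 1.51 times its lowest. Its control libraries read 445, 442 and 462 CPM, a narrow spread. Young co-culture read 635, 708 and 637 CPM and senescent co-culture 753, 710.3 and 577 CPM, with no overlap with the controls. EGFL7 rose by 0.56 ± 0.13 on the log2 scale with young MSCs (adjusted p = 0.0211) and by 0.61 ± 0.13 with senescent MSCs (adjusted p = 0.0144). The first call was lost without control replicate 4 or any 1 of the 3 young co-culture libraries (adjusted p from 0.0531 to 0.0794), and the second without control replicate 4 or senescent co-culture replicates 2 or 3 (adjusted p from 0.068 to 0.0992). Young ECM (505 to 687 CPM) and both CM groups (488 to 715 CPM) also lay above all controls without passing the test.

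Of the receptors that bind multimerin-2, CLEC14A rose with young co-culture and CD93 did not pass in any comparison with control. CLEC14A (ENSG00000176435.7; chromosome 14, 38254103 to 38256369, minus strand) read 131, 81.6 and 104 CPM in controls. It read 173, 155 and 158 CPM in young co-culture, all above the controls, with a log2 fold change of 0.62 ± 0.17 (adjusted p = 0.0391). That call was lost without control replicates 3 or 4 or any 1 of the young co-culture libraries (adjusted p from 0.0554 to 0.142). Senescent co-culture read 132, 147 and 127 CPM, where the lowest library lay below the highest control, and the value was 0.36 (adjusted p = 0.245).

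CD93 (ENSG00000125810.10; chromosome 20, 23079349 to 23086340, minus strand) read 298, 150 and 255 CPM in controls. It read 459, 238 and 524 CPM on young ECM and 436, 427 and 344 CPM on senescent ECM, the highest group means of this gene. All senescent ECM libraries lay above the controls, while young ECM replicate 3 lay among them. The log2 fold changes were 0.78 ± 0.31 (adjusted p = 0.443) and 0.77 (adjusted p = 0.584). Replicate 3 was the lowest library in the control, young ECM, young CM and young co-culture groups.

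The scavenger receptor STAB1 (ENSG00000010327.10; chromosome 3, 52495338 to 52524495, plus strand) had a wide spread in controls, with 75.0, 29.5 and 62.9 CPM. It shares 111 exon bases with NT5DC2 on the opposite strand, and the strand setting of the counting is not given in the sources used here. Young co-culture read 225, 134 and 167 CPM and senescent co-culture 146, 183 and 205 CPM, all above the controls. STAB1 rose by 1.66 ± 0.31 on the log2 scale with young MSCs (adjusted p = 0.00623) and by 1.68 ± 0.31 with senescent MSCs (adjusted p = 0.00561). Both ECM groups, at 24.2 to 68.4 CPM, overlapped the controls. Senescent CM read 100.0, 75.8 and 102 CPM, above every control, but the log2 fold change of 0.73 ± 0.35 did not pass (adjusted p = 0.793).

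LYVE1 (ENSG00000133800.9; chromosome 11, 10556966 to 10611689, minus strand) was low throughout. Controls read 0.424, 0.556 and 0.511 CPM. Senescent co-culture read 1.21, 1.35 and 0.942 CPM, above every control, and the log2 fold change was 1.25 ± 0.26 (adjusted p = 0.0122). The call was lost without control replicate 4 or senescent co-culture replicates 2 or 3 (adjusted p from 0.0554 to 0.0747). Young co-culture read 0.902, 0.940 and 0.534 CPM, with replicate 4 among the controls, and gave 0.68 (adjusted p = 0.134).
On young ECM LYVE1 read 0.895, 1.40 and 1.08 CPM and on senescent ECM 0.968, 1.19 and 0.955 CPM, all above the controls. Those differences, 1.18 ± 0.27 (adjusted p = 0.0695) and 1.06 (adjusted p = 0.148), did not pass in the main fit. With the replicate number as a block, the young ECM difference passed, as given further on. Both CM groups overlapped the controls.

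PLVAP (ENSG00000130300.9; chromosome 19, 17351448 to 17377350, minus strand) was the 1 member called between young and senescent MSCs. Controls read 19.8, 17.6 and 27.8 CPM. Young co-culture read 21.7, 18.4 and 19.0 CPM, within the range of the controls. Senescent co-culture read 36.9, 39.4 and 47.6 CPM, above every library of both. Between young and senescent co-culture, libraries did not overlap for 14% of all genes. The log2 fold change was 0.93 ± 0.18 against control (adjusted p = 0.00825) and 1.07 ± 0.18 against young co-culture (adjusted p = 0.0326). The latter call was lost without any 1 of the 6 libraries (adjusted p from 0.0844 to 0.224) and in a single fit of all 7 groups (adjusted p = 0.126).
On matrix PLVAP read 42.1, 43.4 and 82.7 CPM with young MSCs and 45.6, 52.1 and 38.5 CPM with senescent MSCs. Every ECM library lay above every control, yet the differences of 1.36 ± 0.30 (adjusted p = 0.0522) and 1.05 (adjusted p = 0.216) did not pass in the main fit. With the replicate number as a block, the young ECM difference passed, as given further on. Young CM read 16.9, 10.6 and 10.0 CPM, all below the controls, with -0.78 ± 0.30 (adjusted p = 0.86).

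CD34 (ENSG00000174059.17; chromosome 1, 207880972 to 207911402, minus strand) had the narrowest range, its highest group mean being 1.48 times its lowest. Controls read 23.1, 23.8 and 20.8 CPM, and group means ran from 17.6 CPM on young ECM to 26.0 CPM in young CM. Young ECM at 19.0, 17.5 and 16.2 CPM lay below the controls with a log2 fold change of -0.36 ± 0.12, which did not pass (adjusted p = 0.303). Endomucin, the other sialomucin (ENSG00000164035.10; chromosome 4, 100395341 to 100880126, minus strand), had 0 to 3 counts per library.

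**Figure D2:**
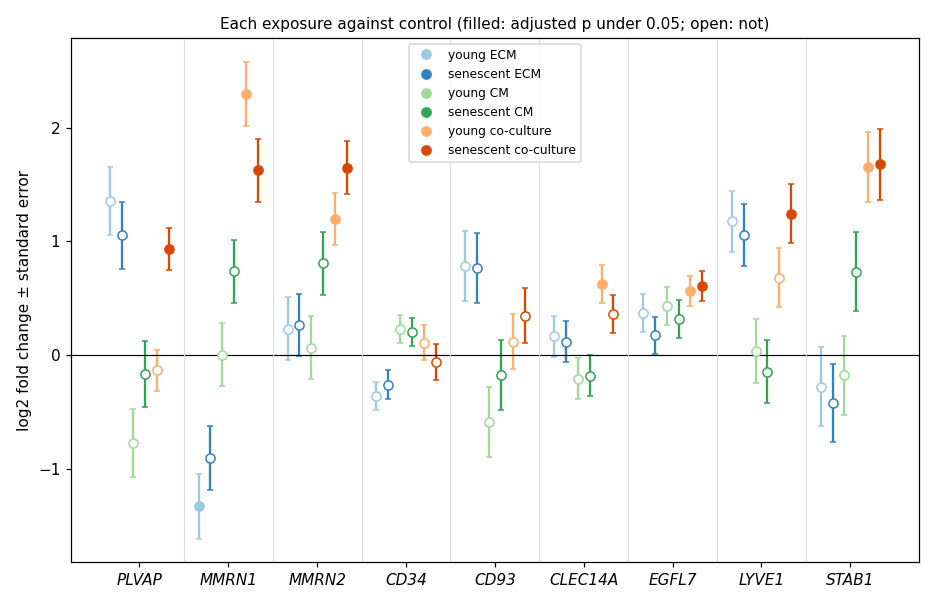
Log2 fold change against control (vertical axis) with its standard error for the 9 tested members in the 6 exposures, replicates 2 to 4. Filled points passed an adjusted p of 0.05: MMRN1 reaches 2.30 in young co-culture and is the only filled point below 0, at -1.33 on young ECM.

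Counted together, 5 of the 9 tested members rose in young co-culture, where 6.71% of 17729 genes rose, and 6 rose in senescent co-culture, where 5.82% did. Their median log2 fold changes were 0.62 and 0.93, against 0.01 and 0.02 over all genes tested. The libraries did not overlap for 5 and 6 members, as for 26.3% and 25.5% of all genes. Both comparisons share the control libraries, and the members were chosen with earlier results of these data known. Stromal markers moved in the same libraries, with medians of 2.04 and 2.95 and summed levels as above, and their part in the members' differences was not tested. In the 5 replicate 1 libraries with 6205 to 10502 CPM of stromal markers, MMRN1 read 1.21 to 2.62 CPM, STAB1 37.0 to 45.7 CPM, MMRN2 136 to 179 CPM, PLVAP 2.51 to 6.91 CPM, CLEC14A 51.5 to 72.7 CPM, LYVE1 0.283 to 0.546 CPM and EGFL7 369 to 579 CPM. The ranges of EGFL7 and LYVE1 reach into those of co-culture replicates 2 to 4, and those of the other 5 lie below them. Replicate 1 also differed from the other replicates apart from stromal markers. In controls PLVAP read 3.38 CPM in replicate 1, against 17.6 to 27.8 CPM in replicates 2 to 4. The source of the stromal RNA in replicate 1 was not tested.

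On young ECM 1 member was called, MMRN1, where 0.649% of 18015 genes were called. Same-numbered libraries of young ECM and control deviated together. Not all those of senescent ECM and senescent CM did so with control (lowest correlation -0.06 and 0.03). With the replicate number as a block over the 15 libraries of control, ECM and CM, 3 members passed, where 1.78% of all genes did. These were MMRN1 at -1.28 ± 0.24 (adjusted p = 0.011), LYVE1 at 1.16 ± 0.21 (adjusted p = 0.00981) and PLVAP at 1.36 ± 0.30 (adjusted p = 0.0346). Senescent ECM gave 0 calls among the members and 0.3% among all genes, of which 1224 had an unadjusted p under 0.05, while 2 members and 1.3% of all genes passed with DESeq2. Young CM gave 0 calls among members and 0% among all genes (846 at an unadjusted p under 0.05), also with DESeq2 for the members. Senescent CM gave 0 calls among members and 0.505% among all genes (1145 at an unadjusted p under 0.05), and no member passed with DESeq2. Not overlapping the controls were 5, 4, 3 and 5 members on young ECM, senescent ECM, young CM and senescent CM, against 10.4%, 11.9%, 6.84% and 10.5% of all genes.

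Whether MSC senescence matters for these markers was asked within each mode. Between senescent and young co-culture PLVAP alone was called, where 0.316% of 17729 genes rose. Libraries did not overlap for 5 members, against 14% of all genes in either direction. Besides PLVAP these were MMRN1 at -0.68, MMRN2 at 0.45, CLEC14A at -0.26 and LYVE1 at 0.56, which did not pass. In the same comparison 6 of 15 stromal markers rose and 0 fell (median 0.73), and their part in the PLVAP difference was not tested. Senescent against young ECM gave 0 member calls and 0% of genes (141 at an unadjusted p under 0.05), with member values from -0.31 for PLVAP to 0.43 for MMRN1. Senescent against young CM gave 0 member calls and 0.0167% of genes (975 at an unadjusted p under 0.05). DESeq2 called 0 members in both. In CM the largest values were 0.91 ± 0.35 for STAB1, 0.74 for MMRN2, 0.73 for MMRN1 and 0.61 for PLVAP, each with an adjusted p of 0.765. For STAB1, MMRN2 and MMRN1 every senescent CM library lay above every young CM library, as for 11.7% of all genes in either direction. STAB1 in co-culture hardly moved with senescence, at 0.02, with an interval of 2 standard errors from -0.58 to 0.62.

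The difference between modes of the effect of senescence was tested directly. None of the 9 members passed. MMRN1 had -1.42 ± 0.36 for co-culture against CM (adjusted p = 0.221), and PLVAP had 1.38 ± 0.38 for co-culture against ECM (adjusted p = 0.644). The share of all genes called was 0.00541% for CM against ECM, 0.103% for co-culture against CM and 0.0487% for co-culture against ECM, with 512, 1018 and 542 genes at an unadjusted p under 0.05. DESeq2 called 0, 1 and 0 members in these 3 comparisons.

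The modes of exposure were then compared with young and senescent groups averaged. Between ECM and CM, PLVAP, LYVE1, CD93 and CLEC14A were higher on ECM and MMRN1 and CD34 lower. These were 6 calls among 9 members, where 15.5% of 18492 genes were called. STAB1 at -0.62 (adjusted p = 0.0806), MMRN2 at -0.18 (0.559) and EGFL7 at -0.10 (0.61) did not pass. The summed level of the epithelial markers also differed, at 1013 to 1309 CPM on ECM and 3336 to 5171 CPM in CM, and its part was not tested. PLVAP differed by 1.68 ± 0.20 (adjusted p = 5.06e-06), LYVE1 by 1.18 ± 0.20 (adjusted p = 0.000263) and CD93 by 1.17 ± 0.21 (adjusted p = 0.000557). MMRN1 differed by -1.48 ± 0.19 (adjusted p = 1.38e-05) and CD34 by -0.52 ± 0.09 (adjusted p = 0.000533). Every ECM library exceeded every CM library for PLVAP, which read 38.5 to 82.7 against 10.0 to 24.6 CPM, and for LYVE1, which read 0.895 to 1.40 against 0.318 to 0.635 CPM. With CD34 and MMRN1 below, 4 members did not overlap, against 7.6% of all genes. CLEC14A differed by 0.34 ± 0.12 (adjusted p = 0.0497), a call kept in 4 of 12 fits that each left out 1 library, with an adjusted p of 0.0646 to 0.129 in the others. Those others each left out replicate 2 of young or senescent ECM, replicate 3 of senescent ECM, young CM or senescent CM, or replicate 4 of young ECM, young CM or senescent CM.

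Co-culture against CM gave 6 higher members, where 9.09% of genes were higher. MMRN1 differed by 1.56 ± 0.18 (adjusted p = 9.77e-06), STAB1 by 1.36 ± 0.24 (adjusted p = 0.000644), LYVE1 by 0.98 ± 0.20 (adjusted p = 0.00201) and MMRN2 by 0.95 ± 0.18 (adjusted p = 0.00143). PLVAP at 0.84 ± 0.19 and CLEC14A at 0.66 ± 0.12 passed as well (adjusted p = 0.00603 and 0.000779). CD93 at 0.58 (adjusted p = 0.0583), EGFL7 at 0.18 (0.258) and CD34 at -0.22 (0.0977) did not. In this comparison 14 of 15 stromal markers were also higher (median 1.99), and their part was not tested.

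Co-culture against ECM divided the members. MMRN1 was higher by 3.04 ± 0.19 (adjusted p = 8.62e-10), STAB1 by 1.97 ± 0.24 (adjusted p = 3.26e-06) and MMRN2 by 1.13 ± 0.18 (adjusted p = 8.37e-05), with every co-culture library above every ECM library. That held for CD34 too, making 4 members without overlap, against 17.1% of all genes. CD34 was higher by 0.30 ± 0.09 (adjusted p = 0.0219), PLVAP lower at -0.85 ± 0.19 (adjusted p = 0.00218) and CD93 lower at -0.59 ± 0.21 (adjusted p = 0.0416). These were 6 of 9 members, where 26.9% of genes were called. CLEC14A at 0.31 (adjusted p = 0.0535), EGFL7 at 0.27 (0.0678) and LYVE1 at -0.19 (0.486) did not pass. Here too 14 of 15 stromal markers were higher (median 2.11), and the summed epithelial markers stood at 3152 to 4489 CPM in co-culture against 1013 to 1309 CPM on ECM. The part of either was not tested. The CD34 call was lost without replicate 4 of young ECM, senescent ECM, young co-culture or senescent co-culture (adjusted p from 0.0563 to 0.0992), and the CD93 call in 8 of 12 fits that each left out 1 library (adjusted p from 0.0671 to 0.104). Those 8 each lacked replicate 2 of young ECM, senescent ECM or senescent co-culture, replicate 3 of senescent ECM, young co-culture or senescent co-culture, or replicate 4 of young ECM or young co-culture.

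**Figure D3:**
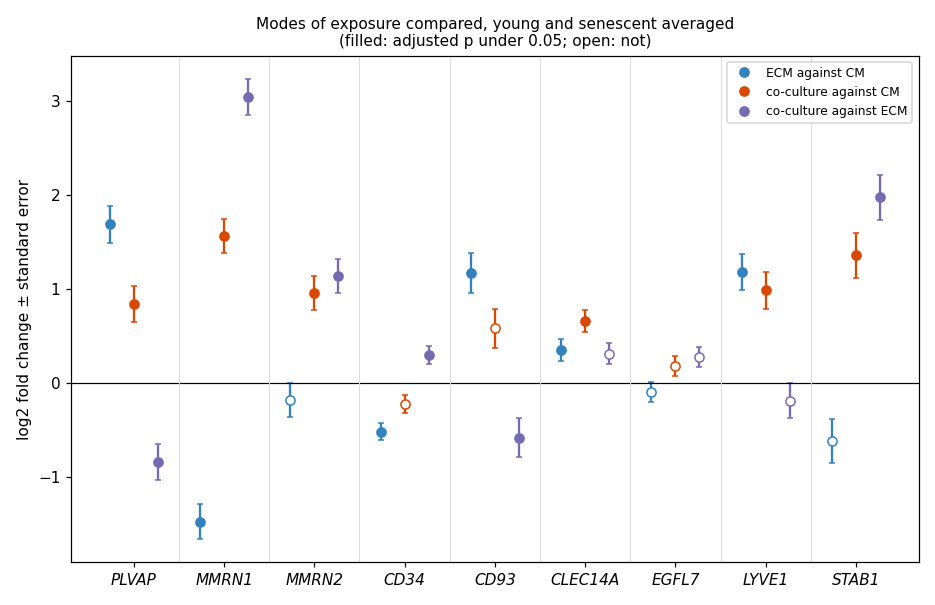
Log2 difference between modes of exposure (vertical axis) with its standard error for the 9 tested members, young and senescent groups averaged. Filled points passed an adjusted p of 0.05. MMRN1 spans from -1.48 for ECM against CM to 3.04 for co-culture against ECM, and PLVAP lies above 0 for ECM against CM and below 0 for co-culture against ECM.

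Within replicate 1, PLVAP read 6.91 CPM on young ECM and 5.11 CPM on senescent ECM against 3.38 CPM in the control, which is 2.04 and 1.51 times its level. LYVE1 there was 1.44 and 1.93 times the control library and MMRN1 0.875 and 0.462 times. Against the control library, 8 of 9 members pointed the same way as in replicates 2 to 4 on young ECM, 8 on senescent ECM, 8 in young CM and 7 in senescent CM. The exceptions were CLEC14A on both matrices (0.786 and 0.708 times the control), STAB1 in young CM (1.05 times), and MMRN1 and LYVE1 in senescent CM (0.7 and 1.35 times). Some directions rest on hardly any difference: in young CM replicates 2 to 4 gave 0.985 times the control for MMRN1 and 1.01 times for LYVE1. The fitted log2 fold change of MMRN1 there was 0.004. Each count compares single libraries, and the share of all genes pointing the same way was not computed. In young co-culture replicate 1, 4 of 9 pointed the same way. EGFL7 was 10.7 times, LYVE1 3.30 times and CLEC14A 1.47 times the control library, whereas MMRN1 was at 0.565, MMRN2 at 0.535, CD93 at 0.498 and STAB1 at 0.701 times, and PLVAP at 1.50 times where replicates 2 to 4 gave 0.906. That library had a TMM factor of 0.459, against 0.949 to 1.08 in the other libraries, which raises all its CPM values. By library totals the ratios were 4.80 for EGFL7, 1.48 for LYVE1, 0.662 for CLEC14A, 0.254 for MMRN1, 0.241 for MMRN2 0.315 for STAB1, 0.672 for PLVAP and 0.450 for CD34, so CLEC14A, PLVAP and CD34 (1.00 with TMM) changed side. With replicates 1 to 4 in the fit, 0 members were called in either co-culture group against control.

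Other endothelial genes showed how far the members' rise in co-culture was shared. Of 51 listed genes 38 were tested. In young co-culture 22 rose and 1 fell (median log2 fold change 0.79), where 6.71% of all genes rose. In senescent co-culture 21 rose and 1 fell (median 0.84), where 5.82% of all genes rose. Over all genes the medians were 0.01 and 0.02. P-selectin (SELP), an adhesion receptor of activated endothelium, rose from 2.93 ± 0.09 to 14.3 ± 3.60 CPM (SD, n = 3) in young co-culture (log2 fold change 2.29 ± 0.21, adjusted p = 0.000103). VE-cadherin (CDH5), the junction protein, rose from 250.4 ± 54.1 to 711 ± 55.6 CPM in senescent co-culture (1.51 ± 0.18, adjusted p = 0.000292). The von Willebrand factor gene VWF rose by 1.57 and the VEGF receptor gene KDR by 1.51 in young co-culture. Between senescent and young MSCs 0 of the 38 were called in any mode. Their median log2 fold change was 0.344 in CM (-0.0259 over all genes), -0.0377 on ECM (-0.00229) and 0.00769 in co-culture (0.000534). ECM against CM split the list, with 7 higher and 8 lower, where 15.5% of all genes were called. Thrombomodulin (THBD) was higher by 2.30 ± 0.25 (adjusted p = 2.72e-06) and NOS3 by 2.24 ± 0.26 (adjusted p = 4.31e-06), while the peptide gene APLN was lower at -1.87 ± 0.12 (adjusted p = 1.42e-09).

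**Figure D4:**
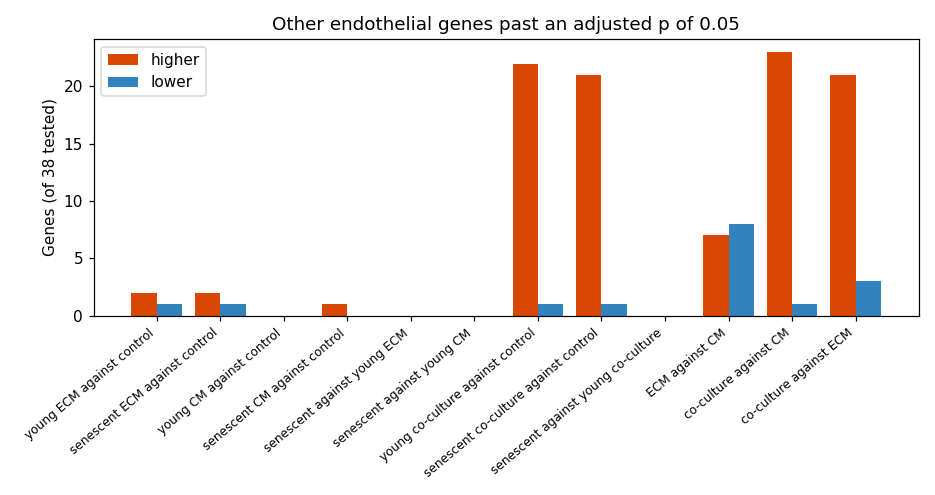
Number of the 38 tested other endothelial genes past an adjusted p of 0.05 (vertical axis), higher and lower, in each comparison. Higher genes number 22 and 21 in the co-culture groups against control, and ECM against CM is split 7 to 8.

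Genes that bind or accompany the members were a list of 26, of which 23 or 24 were tested. KDR and THBD stand in this list and in the one before. In young co-culture 13 rose and 1 fell (median 0.70), and in senescent co-culture 12 rose and 1 fell (median 0.69). Over all genes 6.71% and 5.82% rose. HSPG2, which encodes the basement membrane proteoglycan perlecan, rose by 1.76 ± 0.38 and 1.90 ± 0.39 (adjusted p = 0.0149 and 0.00986). HYAL2, a hyaluronidase, rose from 255 ± 13.5 CPM in controls to 579 ± 43.1 and 805 ± 128 CPM (log2 fold changes 1.19 and 1.67), and on young ECM to 457 ± 19.9 CPM (0.84 ± 0.18, adjusted p = 0.0408). CD248, a lectin-like relative of CD93 and CLEC14A that stromal cells carry, rose by 2.22 in senescent co-culture and by 1.23 ± 0.21 between senescent and young co-culture (adjusted p = 0.0273). LOX, a collagen crosslinking enzyme, fell by 1.20 on the log2 scale in senescent CM (adjusted p = 0.00862).

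In co-culture, lymphatic genes did not move as one with LYVE1. Of 12 listed, 6 or 7 were tested. RELN fell from 9.88 ± 1.62 CPM to 0.688 ± 0.115 CPM in young co-culture and 0.646 ± 0.0626 CPM in senescent co-culture (log2 fold changes -3.83 and -3.93). The co-receptor gene NRP2 rose by 1.04 and 0.92 in the same groups. RELN also fell in senescent CM, to 2.33 ± 1.07 CPM (-2.08 ± 0.29, adjusted p = 0.00435). PROX1, which lay below the level set for naming and was chosen after its values were seen, rose by 1.80 in young co-culture and 1.58 in senescent co-culture. Between ECM and CM, where LYVE1 was higher on ECM, 4 of the 7 tested lymphatic genes were higher on ECM and 0 lower. Their median was 0.83, against -0.01 over all genes, of which 15.5% were called in either direction.

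Among 10124 genes with a mean of at least 5 CPM, those with group means most like each of the 4 most variable members were sought by the root-mean-square difference of centred log2 means over the 7 groups. MMRN1, whose group means spanned 3.62 on the log2 scale, was closest to ALDH1A1 (0.29), DDIT4 (0.33) and THBS1 (0.33). PLVAP, spanning 2.16, was closest to TMEM200C (0.24), ATP2B4 (0.28) and PDE3A (0.29). STAB1, spanning 2.08, was closest to PCDH1 (0.14), YPEL2 (0.16) and ROR1 (0.17). MMRN2, spanning 1.64, was closest to LFNG (0.10), PLA2R1 (0.11) and FURIN (0.12). All points share the same libraries, so these are descriptions.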

How the data were processed

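Poly(A) RNA was sequenced from strand-marked libraries, per the labels' protocols. HISAT2 2.2.1 aligned reads to GRCh38 (hg38) and featureCounts 2.0.1 counted them, per the submitters' processing notes. The counting's strand setting and its annotation are not given in the sources. The authors deposited unnormalised whole counts for each gene, in 60648 entries, of which 44 Y copies of pseudoautosomal genes (109832 counts) were left out. Symbols matched 60462 entries and GENCODE 29 positions 58336. Libraries of a group all differed by more than sampling noise (lowest chi-square per degree of freedom 21.9).

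From the counts, edgeR 4.0.16 (R 4.3.3; limma 3.58.1) gave quasi-likelihood F-tests, 2-sided, after TMM and a filterByExpr minimum of 10 counts, with Benjamini-Hochberg adjustment over all genes and a threshold of 0.05. Control, ECM and CM were fitted together (15 libraries), control and co-culture together (9 libraries), and all 21 libraries together for modes and for senescence effects, giving 15 comparisons. Alternatives were DESeq2 1.42.0, other size factors, library totals, no filter, replicates 1 to 4, 1 fit of all groups, a replicate block and leaving out each library.

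Pairing of same-numbered libraries was checked by the correlation of their deviations from group means: 63 same-numbered pairs ran from -0.21 to 0.61 (median 0.16). The 126 differently numbered pairs ran from -0.56 to 0.44 (median -0.10), so the ranges overlapped. Every same-numbered pair exceeded 0.1 for young ECM, young CM and young co-culture against control. The labels do not say that the numbers pair the cultures. The main fits had no replicate block, and their values are the ones given unless a block is named. With the block, 3 members were called on young ECM (1.78% of all genes), 0 in young CM (0.0333%) and 5 in young co-culture (11.6%).

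The members and gene lists were chosen with earlier results of these data known. By the naming rule all 10 members may be named in any comparison; those without a value there enter its counts. From each list, up to 4 genes per comparison may be named, those past the threshold with the largest absolute log2 fold change whose mean reaches 5 CPM in a group compared. Likeness was sought for the 4 members of widest range, 3 genes each.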

Additional observations from a re-analysis of the deposited data

Results flagged for a closer look

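In groups of 4 libraries, replicate 1 included, 5 of 54 sets of values had 1 library far from the others, where chance gives about 1 in 20. EGFL7 read 3948 CPM in young co-culture replicate 1, against 635 to 708 CPM in the other 3 libraries; by library totals without TMM, whose factor there was 0.459, it was 1812 CPM. CD34 read 10.2 CPM in senescent ECM replicate 1, against 18.0 to 19.6 CPM, and 16.7 CPM in senescent CM replicate 1, against 25.0 to 26.4 CPM. EGFL7 read 510.4 CPM in senescent CM replicate 2, against 573 to 586 CPM. LYVE1 read 0.534 CPM in young co-culture replicate 4, against 0.902 to 0.940 CPM.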

How the results depend on the processing

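Of 31 calls of a member, 22 held in every fit that left out 1 library and 25 were lost when replicate 1 was added; 0 reversed under any alternative run. With replicates 1 to 4, members called fell to 0 on young ECM (from 1), 0 in young co-culture (from 5), 0 in senescent co-culture (from 6), 0 for senescent against young co-culture (from 1), 1 for ECM against CM (from 6) and 2 for co-culture against CM (from 6). The shares of all genes called there were 0.00534%, 0.251%, 0.167%, 0%, 2.15% and 1.66%. The stromal sums of replicate 1 stand in the report. Without the filter on low counts, 4 members were called on young ECM (1% of all genes), 3 on senescent ECM (0.802%), 1 in young CM (0.301%), 2 in senescent CM (0.785%), 2 for senescent against young CM (0.409%), 2 for senescent against young co-culture (0.718%), and 1, 1 and 2 for the senescence effect in CM against ECM, co-culture against CM and co-culture against ECM (0.192%, 0.483% and 0.265%). DESeq2 called 3 on young ECM (1.92% of all genes), 2 on senescent ECM (1.3%) and 1 for the senescence effect in co-culture against CM (0.368%). A single fit of all 7 groups called 3 on young ECM (1.27% of all genes) and 0 for senescent against young co-culture (0.46%). With the replicate block, 3 were called on young ECM (1.78% of all genes) and 1 on senescent ECM (1.11%), and no other count moved by over 1.5 times. Leaving out 1 library gave 0 to 1 on young ECM, 3 to 5 in young co-culture, 4 to 7 in senescent co-culture, 0 to 0 for senescent against young co-culture, 5 to 6 for ECM against CM, 6 to 7 for co-culture against CM, 4 to 7 for co-culture against ECM and 0 to 0 in the others. The causes of these changes were not tested. Depth limits EMCN, with at most 3 counts per library in replicates 2 to 4 and at most 6 in replicate 1.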
